A study of Mus musculus with 18 samples.

Results

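The genes described here encode solute carriers, the membrane proteins of the Slc families, in peritoneal macrophages with and without LPS. Members were the protein-coding mouse genes whose symbol starts with Slc and a number, without 8 genes left out by name (Slc7a1, Slc7a2, Slc7a11, Slc11a1, Slc11a2, Slc40a1, Slc30a1 and Slc39a14, carriers of arginine, cystine, iron and zinc), and with a group mean of at least 1 FPKM (fragments, normalised to transcript length and to the fragments of the library) in at least 1 of the 6 groups. Of 371 such symbols in the annotation, 363 remained after those 8 were left out, 226 had a value in the data and 156 met the level, out of 13598 genes with a value. The members were chosen by the FPKM level of these same libraries, so that being expressed is not a result. Just inside it lay Slc27a6 at 1.06, Slc6a13 at 1.16 and Slc9a4 at 1.18 FPKM in their highest group, and just outside it Slc22a15 at 0.976, Slc29a2 at 0.944 and Slc25a23 at 0.839 FPKM. The 156 genes fall into 41 Slc families. Of them, 152 encode transporters and 4, Slc9a3r1, Slc9a3r2, Slc7a6os and Slc4a1ap, carry an Slc symbol but encode partner proteins.

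RNA-seq was run on peritoneal macrophages of TLR4-WT mice and of TLR4-K730R and TLR4-K810R mice, in which a lysine of the TIR domain of Toll-like receptor 4 was replaced by arginine. Cells of each genotype received either no LPS (mock) or LPS, the bacterial ligand of TLR4, at 100 ng/ml for 6 h, with 3 libraries in each of the 6 groups. All mice were on the C57BL/6 background, and the point mutants were made with CRISPR/Cas9 and carry the change in every cell. The cells were thioglycolate-elicited, so that they were recruited macrophages and not the resident cells of the cavity. The age and sex of the mice and whether the 3 libraries of a group came from separate mice were not given in the labels, and p-values therefore measure the spread between these libraries. Depth is unknown because the values are FPKM without counts.

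The macrophage markers were present in every library, over 7 of the 8 marker genes, but Cd14 was listed at 0 in 17 of 18 libraries. Their summed level moved with the treatment. It was 13470 to 14785 FPKM with mock and 7289 to 9465 FPKM with LPS in TLR4-WT, 13624 to 14743 and 7598 to 9792 FPKM in TLR4-K730R, and 11633 to 13949 and 9098 to 10057 FPKM in TLR4-K810R, with no overlap in any genotype. Most of the sum was Lyz2, at 12085 to 13212 FPKM with mock and 5944 to 8218 FPKM with LPS in TLR4-WT. Mertk, Cd68 and Csf1r were also lower with LPS in TLR4-WT. Adgre1 was not, at 199 to 253 FPKM with mock and 211 to 238 FPKM with LPS. Fcgr1 was higher, at 47.4 to 51.7 FPKM with mock and 228 to 412 FPKM with LPS. Markers of other cells moved with the groups too. The 9 intestinal epithelial genes with a value summed to 0.118 to 0.670 FPKM in mock-treated TLR4-WT libraries, 43.1 to 69.9 in mock-treated TLR4-K730R and 53.9 to 115 in mock-treated TLR4-K810R libraries. After LPS they summed to 0.0928 to 11.5, 50.3 to 58.3 and 0.127 to 20.04 FPKM in TLR4-WT, TLR4-K730R and TLR4-K810R. The mesothelial and fibroblast list summed to 16.3 to 30.4 FPKM in mock-treated TLR4-WT, 35.9 to 42.1 in mock-treated TLR4-K730R and 71.6 to 184 in mock-treated TLR4-K810R libraries. After LPS it summed to 26.9 to 92.1, 29.2 to 30.5 and 64.6 to 76.7 FPKM in TLR4-WT, TLR4-K730R and TLR4-K810R. The lung epithelial list reached 34.7 FPKM in an LPS-treated TLR4-K810R library. The mast cell list summed to 4.70 to 5.25 FPKM in mock-treated TLR4-WT, 0.494 to 2.58 in mock-treated TLR4-K730R and 0.797 to 2.64 in mock-treated TLR4-K810R libraries, and to 0.504 to 4.61 FPKM with LPS. The neutrophil list summed to 22.1 to 46.7 FPKM in mock-treated and 167 to 239 FPKM in LPS-treated libraries. Nearly all of this was S100a8, at 22.1 to 45.1 FPKM with mock and 165 to 239 FPKM with LPS. Ly6g was at most 0.644, Mpo at most 0.610 and S100a9 at most 2.23 FPKM in any library. In bulk RNA, fewer cells of a type and less RNA per cell cannot be told apart, and the part of these shifts in the results below was not tested. Slc22a18, Slc27a6 and Slc35d1 were the 3 members at the level of 1 FPKM only in groups where the intestinal list was high in all libraries.

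Solute carriers move sugars, amino acids, nucleosides, vitamins, metals and inorganic ions across the plasma membrane, the lysosome, the Golgi apparatus and the inner mitochondrial membrane, without hydrolysing ATP themselves. Macrophages rely on them to feed glycolysis and arginine or glutamine use, to export lactate, to load or empty the phagosome of metals, and to return the products of lysosomal digestion to the cytosol. LPS binding to TLR4 switches transcription through NF-κB and interferon regulatory factors, and activated macrophages are known for changes in glucose, amino acid and metal handling.

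By level, the most abundant member was Slc15a3, a lysosomal peptide and histidine transporter, with 286 to 306 FPKM in mock-treated TLR4-WT macrophages. It was followed, by the mean over all 18 libraries, by Slc3a2 (the heavy chain of CD98, partner of several amino acid exchangers), Slc25a5 (an ADP/ATP carrier of mitochondria), Slc48a1 (the haem transporter HRG1 of the phagolysosome), Slc6a6 (taurine uptake), Slc9a3r1 (the scaffold NHERF1), Slc31a2 (copper), Slc25a3 (the mitochondrial phosphate carrier), Slc43a2 (neutral amino acids) and Slc39a1 (zinc uptake). Their means ran from 440 FPKM for Slc15a3 to 94.3 FPKM for Slc39a1. At the other end, 35 members reached 1 FPKM in some of the 6 groups but not in all, of which 14 did so only in mock-treated groups and 3 only in LPS-treated groups. Such a member passed through the group where it was high, and its difference between groups is in part set by the choice. Of the members with the largest changes in TLR4-WT, Slc46a3, Slc36a2, Slc9a9, Slc9a7 and Slc9a3r2 passed only with mock and Slc1a2 only with LPS.

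In TLR4-WT macrophages, LPS was followed by lower levels of many solute carriers and by strong rises of a few. Of 154 members tested with limma, 64 passed an adjusted p below 0.01, 16 of them higher and 48 lower after LPS. That is 41.6% of the members, beside 34.3% of all 9707 genes tested, of which 10.4% were called higher and 23.9% lower. The median log2 difference on the log2(FPKM + 1) scale was -0.39 over the members and -0.28 over all genes, so that the typical gene was also listed lower after LPS and a fall smaller than 0.28 was within the shift of the whole table. After median-of-ratios scaling, which moves the median of all genes to -0.01, 20 members were called higher (13%, beside 15.5% of all genes) and 33 lower (21.4%, beside 14.2%), with a member median of -0.14. Among the 121 members at 1 FPKM or more in all 6 groups, 51 were called, 15 higher and 36 lower. The 3 libraries of one treatment lay wholly on one side of the other 3 for 93 members, which is 60.4% beside 55% of all genes. For comparison, 15 of 27 ABC and Slco transporter genes kept by the same level were called, 4 higher and 11 lower, and of the 8 genes left out by name 3 were called, all higher. The substrate classes below were assigned by Slc family number, and their counts include members that passed the level in some groups only. These counts stand beside the same shares of all genes, 10.4% called higher and 23.9% called lower. The class counts after scaling stand beside 15.5% of all genes called higher and 14.2% called lower.

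**Figure D1:**
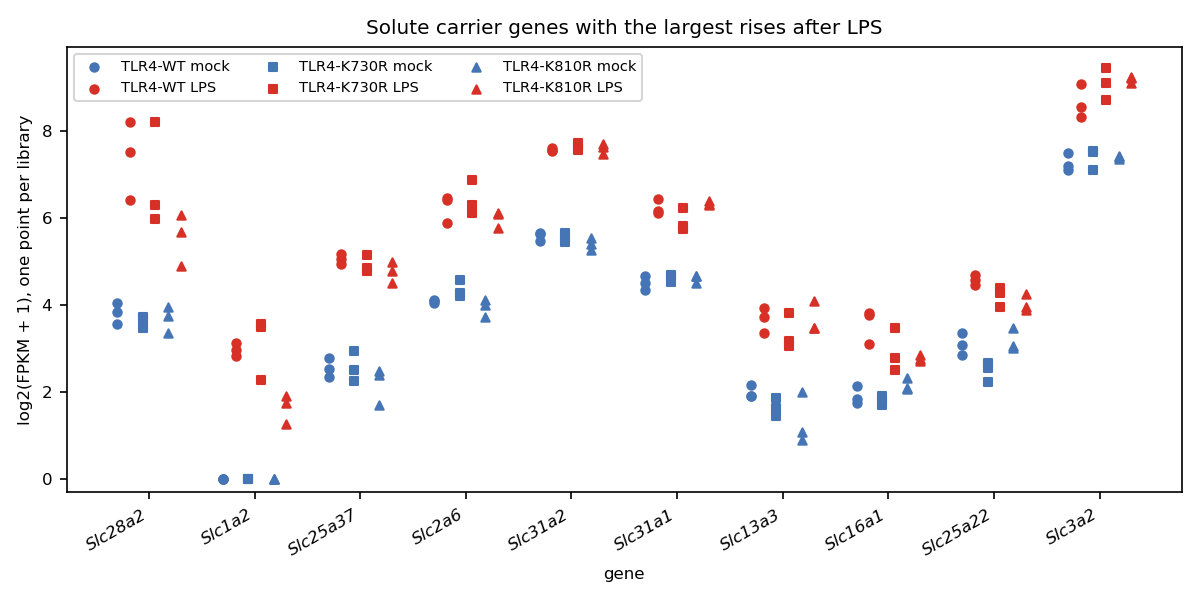
FPKM on the log2(FPKM + 1) scale (vertical axis) of the 10 members with the largest called rises after LPS in TLR4-WT (horizontal axis), with 1 point per library, blue for mock and red for LPS, and circles, squares and triangles for TLR4-WT, TLR4-K730R and TLR4-K810R. In TLR4-WT the red circles lie above the blue circles for each of the 10 genes, and Slc1a2 is listed at 0 in all mock-treated libraries. Slc1a2 passed the level of 1 FPKM only with LPS, so that its rise is in part set by the choice.

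The metal carriers held the pair of copper transporters, which rose together. Slc31a2 encodes CTR2, a copper transporter of intracellular membranes, and lies at chr4:62262562-62298411 (GRCm38, plus strand). Its level was 49.2, 49.1 and 43.2 FPKM in mock-treated and 189, 186 and 195 FPKM in LPS-treated TLR4-WT libraries, a log2 difference of 1.99 ± 0.10 (SE; limma adjusted p = 3.52e-10). The 2 treatments did not overlap, and the spread within each was small. Slc31a1 encodes CTR1, the copper importer of the plasma membrane, and lies on the same strand at chr4:62360727-62391769. It went from 24.6, 19.5 and 21.8 FPKM to 85.4, 71.1 and 68.1 FPKM, a log2 difference of 1.72 ± 0.13 (adjusted p = 2.67e-08). The promoter windows of these neighbouring genes are shown because both members moved in all 3 genotypes, as the 250 bases before the RefSeq start site in GRCm38.p6, plus strand, at chr4:62286179-62286428 for Slc31a2 and chr4:62360451-62360700 for Slc31a1.
Slc31a2: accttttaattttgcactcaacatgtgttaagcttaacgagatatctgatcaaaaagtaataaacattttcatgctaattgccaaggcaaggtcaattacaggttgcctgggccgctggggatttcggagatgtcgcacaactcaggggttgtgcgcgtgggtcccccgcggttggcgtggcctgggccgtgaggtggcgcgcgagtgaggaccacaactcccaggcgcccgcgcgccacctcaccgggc
Slc31a1: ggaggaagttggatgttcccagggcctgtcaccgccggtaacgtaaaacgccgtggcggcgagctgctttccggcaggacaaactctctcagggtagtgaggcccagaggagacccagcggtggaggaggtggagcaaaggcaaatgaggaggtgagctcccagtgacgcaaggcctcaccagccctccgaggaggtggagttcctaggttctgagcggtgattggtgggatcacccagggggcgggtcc
Neither window held a match to the 4 motifs searched on both strands. These were the κB site, by its consensus, the AP-1 site TGANTCA, the interferon response element core GAAANNGAAA and the E-box CACGTG. A RefSeq window was matched where its start site lay within 50 bases of the start of a first exon that the deposited rows list for the gene, which held for 86 of the 156 members. For Slc31a2 that first exon lies inside the annotated span of the gene, downstream of its outermost start. Over these 86, the κB site was present in 4 (4.65%, beside 3.9% of all 32851 windows), the AP-1 site in 4 (4.65%, beside 6.75%), the interferon response element core in 1 (1.16%, beside 2.98%) and CACGTG in 12 (14%, beside 6.02%). A match is a description of letters and was not measured as a bound site.

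Of the 19 metal ion carriers tested, the copper pair included, 4 were called higher and 4 lower in TLR4-WT, also after scaling, with a median log2 difference of -0.26 (0.04 after scaling). Of the 14 members of the zinc transporter families Slc30 and Slc39, 2 were called higher and 3 lower, with the same counts after scaling. Slc30a1 and Slc39a14 of these families are not counted, being among the genes left out by name, and the latter was called higher (2.004 ± 0.26, adjusted p = 1.22e-05). Slc39a1, the zinc importer ZIP1, was at 79.5, 76.2 and 84.8 FPKM with mock and 112, 110 and 108 FPKM with LPS, a rise of 0.46 ± 0.08 on the log2 scale (adjusted p = 0.000185, and 0.011 with only the TLR4-WT libraries in the fit). Slc30a7, which brings zinc into the Golgi apparatus, rose from 3.96 to 4.85 FPKM across the mock libraries to 6.88 to 9.18 FPKM across the LPS libraries (0.70 ± 0.14, adjusted p = 0.000525). In contrast, Slc39a11, a zinc transporter of the ZIP family, fell from 16.8, 19.3 and 22.4 FPKM to 6.14, 7.48 and 6.35 FPKM (-1.42 ± 0.18, adjusted p = 1.05e-05). Slc39a10, the ZIP10 importer, and Slc30a5 were the other zinc transporters called lower, and Slc41a3, of a magnesium carrier family, was the remaining called fall of the class. Slc30a5 is listed by its last exons at a higher level than by its first exons, 9.34 against 4.83 FPKM over all libraries, and its fall was read from the larger sum.

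Of 25 members of the amino acid and peptide families tested, among them the partner protein Slc7a6os, 2 were called higher (8%, beside 10.4% of all genes) and 10 lower (40%, beside 23.9%), or 2 and 7 after scaling, with a median of -0.37 (-0.08 after scaling). In TLR4-K810R 3 of them were called higher and 7 lower (beside 9.08% and 19.7% of all genes), and after scaling 3 in each direction (beside 12.4% and 11.7%). Slc7a1, Slc7a2 and Slc7a11 were left out by name and are not counted. The largest fall was that of Slc43a2, the neutral amino acid transporter LAT4, at chr11:75531694-75577575. It stood at 179, 168 and 182 FPKM in mock-treated and 18.8, 22.6 and 27.2 FPKM in LPS-treated TLR4-WT libraries, a log2 difference of -2.91 ± 0.20 (adjusted p = 8.9e-09). No LPS-treated library of any genotype reached the lowest mock-treated one, which was a TLR4-K810R library at 94.6 FPKM. Its promoter window, at chr11:75531444-75531693 on the plus strand, is shown because it held the κB match of the 10 largest falls, which is in capitals.
Slc43a2: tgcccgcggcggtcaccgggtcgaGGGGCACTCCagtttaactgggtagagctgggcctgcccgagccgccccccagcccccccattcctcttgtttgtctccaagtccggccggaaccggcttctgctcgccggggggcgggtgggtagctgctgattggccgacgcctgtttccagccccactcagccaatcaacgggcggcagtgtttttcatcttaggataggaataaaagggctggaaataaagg
The match lay 226 to 217 bases before the start site. Of the 10 largest falls, 6 had a window, and 1 of these 6 held the κB site.

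Slc36a2, a proton-coupled carrier of small amino acids, was at 3.44, 3.66 and 3.37 FPKM with mock and was listed at 0 in all 3 LPS-treated TLR4-WT libraries (adjusted p = 5.95e-07). It passed the level of 1 FPKM only with mock, so that its fall is in part set by the choice. Its relatives Slc36a1 and Slc36a4 were also called lower, with log2 differences of -1.44 and -1.39, and after scaling Slc36a1 was no longer called (adjusted p = 0.0201). Slc36a4 fell from 21.5 to 26.9 FPKM across the mock libraries to 7.69 to 9.76 FPKM across the LPS libraries. Slc1a5, the glutamine and neutral amino acid exchanger ASCT2, fell from 20.2, 18.4 and 22.5 FPKM to 6.86, 6.24 and 12.8 FPKM (-1.21 ± 0.24, adjusted p = 0.000719). Slc38a2 (SNAT2), Slc6a8 (creatine uptake), Slc15a4 (lysosomal histidine and peptides), Slc38a10 and Slc38a7 completed the 10 falls, and of these Slc38a10 and Slc38a7 were not called after scaling.

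Slc3a2 and Slc1a2 were the 2 amino acid members that rose. Slc3a2 was at 180.3, 145 and 137 FPKM with mock and 375, 321 and 538 FPKM with LPS (1.39 ± 0.20, adjusted p = 3.13e-05). Slc1a2, the glutamate transporter GLT-1 better known from astrocytes, was listed at 0 in all 9 mock-treated libraries of the 3 genotypes and at 6.09, 7.74 and 6.80 FPKM in the LPS-treated TLR4-WT libraries (adjusted p = 1.47e-07). Slc1a2 passed the level of 1 FPKM only with LPS, so that its rise is in part set by the choice. Its value came from first-exon rows, with a mean of 2.90 FPKM over all libraries, while its last-exon rows summed to 0.105 FPKM. Other members also rested on first-exon rows. Over all libraries these averaged 47.5 FPKM against 0 for Slc31a1, 100.2 against 0.198 for Slc43a2 and 117 against 0 for Slc25a3. Slc15a3 was higher in each LPS-treated TLR4-WT library, at 789, 737 and 399.97 FPKM against 286, 299 and 306 FPKM with mock, but did not pass the test (1.05 ± 0.48, adjusted p = 0.0845). With LPS it also spread widely in the mutants, over 249, 1050.3 and 248 FPKM in TLR4-K730R and 926, 637 and 307 FPKM in TLR4-K810R. Slc6a6 in TLR4-WT was at 197, 170.5 and 192 FPKM with mock and at 142, 130.4 and 99.9 FPKM with LPS, without passing (-0.60 ± 0.22, adjusted p = 0.0358). It was called lower in the other 2 genotypes. Slc7a5, a light chain that pairs with CD98, was not analysed here.

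Organic anion carriers, which move lactate, pyruvate, dicarboxylates and sialic acid, held 2 called rises and 3 called falls among 10 tested, and 4 and 2 after scaling. Slc16a1 encodes MCT1, the lactate and pyruvate carrier, at chr3:104638668-104658462. It rose from 2.39, 3.43 and 2.59 FPKM to 13.1, 12.7 and 7.63 FPKM (1.65 ± 0.22, adjusted p = 1.71e-05). Slc13a3, the sodium-dependent dicarboxylate importer NaDC3, rose from 2.77, 2.77 and 3.53 FPKM to 12.2, 14.3 and 9.36 FPKM (1.67 ± 0.28, adjusted p = 0.000122). Both treatments were apart in all libraries for these members, and both windows were among the 12, of the 86 found, that held CACGTG. That of Slc16a1, at chr3:104638414-104638663 on the plus strand, is shown with the match in capitals, 200 to 195 bases before the start site.
Slc16a1: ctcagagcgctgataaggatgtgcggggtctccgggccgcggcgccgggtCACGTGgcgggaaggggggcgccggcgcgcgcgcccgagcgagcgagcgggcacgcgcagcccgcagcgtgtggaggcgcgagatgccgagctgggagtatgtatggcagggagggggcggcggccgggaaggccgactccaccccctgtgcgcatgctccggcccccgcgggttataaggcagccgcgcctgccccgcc
Slc16a3, the lactate exporter MCT4, was at 39.2, 25.3 and 35.7 FPKM with mock and 49.98, 26.1 and 55.05 FPKM with LPS, and the treatments overlapped (0.33 ± 0.25, adjusted p = 0.3). Slc16a7, which encodes the pyruvate and lactate carrier MCT2, fell from 2.82, 9.996 and 8.44 FPKM to 0.241, 0.227 and 0.967 FPKM (-2.35 ± 0.46, adjusted p = 0.000533). Slc17a5, sialin, which lets sialic acid out of the lysosome, fell from 12.9, 12.2 and 11.2 FPKM to 2.44, 2.63 and 2.06 FPKM (-1.96 ± 0.13, adjusted p = 6.76e-09). The mock-treated libraries differed among themselves for Slc16a7 and were close together for Slc17a5.

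**Figure D2:**
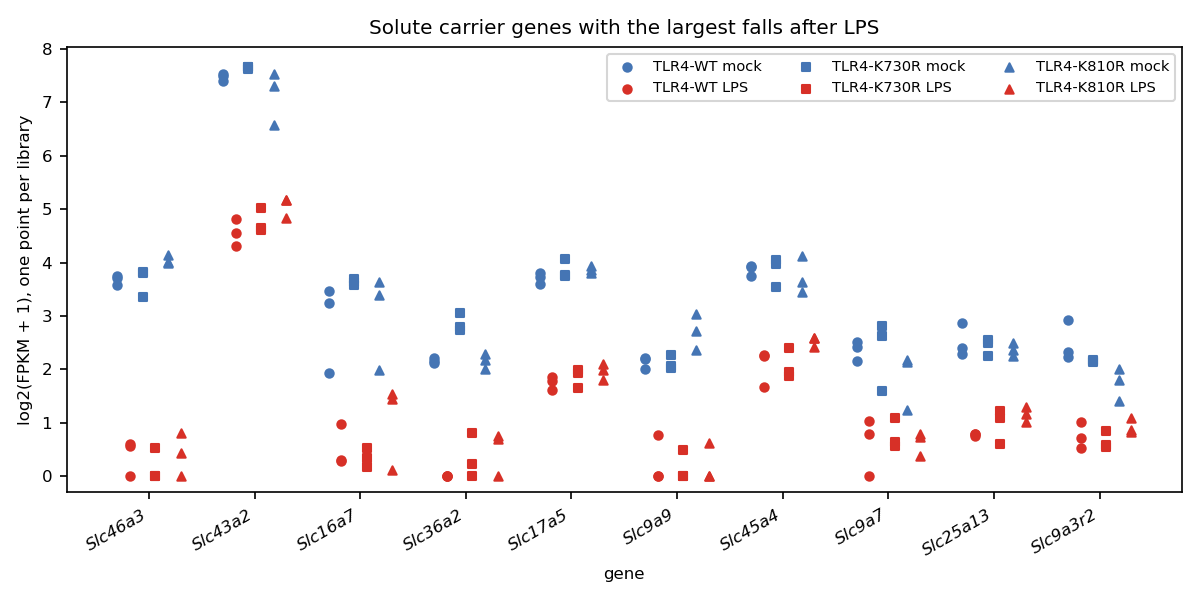
FPKM on the log2(FPKM + 1) scale (vertical axis) of the 10 members with the largest called falls after LPS in TLR4-WT (horizontal axis), with the same colours and symbols as for the rises. In TLR4-WT every red circle lies below every blue circle of the same gene, and Slc36a2 sits at 0 in the 3 LPS-treated TLR4-WT libraries. Slc46a3, Slc36a2, Slc9a9, Slc9a7 and Slc9a3r2 passed the level of 1 FPKM only with mock, so that their falls are in part set by the choice.

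The sugar carrier families, with the vitamin carrier Slc5a6 among them, gave 1 rise and 3 falls among 10 tested, with a median of -0.67, the lowest of the 8 classes (-0.45 after scaling, with 1 rise and 2 falls). Slc2a6, the glucose transporter family member GLUT6, rose from 16.5, 16.2 and 15.5 FPKM to 86.6, 83.9 and 58.2 FPKM (2.16 ± 0.19, adjusted p = 1.84e-07). The value rested on its last-exon rows, which averaged 46.2 FPKM against 21.3 for the first-exon rows, and with first exons alone the log2 difference was 1.12 and was not called (adjusted p = 0.301). Slc45a4, of the proton-coupled sugar carrier family, fell from 14.4, 12.5 and 14.1 FPKM to 3.83, 2.17 and 3.79 FPKM (-1.81 ± 0.21, adjusted p = 3.04e-06). Slc37a4, the glucose 6-phosphate carrier of the endoplasmic reticulum, and Slc2a8 were the other 2 falls, at -1.02 and -0.998, and Slc2a8 was not called after scaling. Slc2a1, the glucose transporter GLUT1, ranged from 8.90 to 58.2 FPKM across the mock libraries and from 14.4 to 58.8 FPKM across the LPS libraries, and no difference was detectable with this spread (-0.34 ± 0.83, adjusted p = 0.766).

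Mitochondrial carriers of the Slc25 family were the largest class, with 31 tested, 2 called higher and 9 called lower, and 3 and 4 after scaling. Slc25a37 encodes mitoferrin-1, the iron importer of the inner membrane. It rose from 4.82, 5.92 and 4.13 FPKM to 35.3, 32.2 and 29.9 FPKM (2.50 ± 0.22, adjusted p = 1.21e-07). Slc25a22, a glutamate carrier, rose from 7.43, 6.28 and 9.32 FPKM to 24.9, 22.95 and 21.0 FPKM (1.48 ± 0.18, adjusted p = 4.41e-06). The most abundant carriers of the class did not rise. Slc25a3, the phosphate carrier, fell from 143, 133 and 134 FPKM to 81.1, 80.1 and 89.5 FPKM (-0.70 ± 0.08, adjusted p = 4.01e-06). The ADP/ATP carrier Slc25a4 fell by 0.65 on the log2 scale, a call that scaling removed (adjusted p = 0.04). The ADP/ATP carrier Slc25a5 was at 293, 292 and 284 FPKM with mock and 199, 161 and 199 FPKM with LPS, with no overlap, and was not called in the fit of all groups (-0.64 ± 0.77, adjusted p = 0.523). In that fit 1 library stood apart, an LPS-treated TLR4-K730R library at 7.54 FPKM beside replicates at 189 and 199 FPKM, and with only the TLR4-WT libraries in the fit the fall was called (adjusted p = 0.0054). In the library that stood apart, rows under the Slc25a5 gene number that overlap the neighbouring Slc25a43 held 111 FPKM, against 3.29 to 6.63 FPKM in the other 17 libraries, and with all rows of the gene number summed the adjusted p was 0.00447.

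Slc25a13, the aspartate-glutamate carrier citrin, fell from 4.30, 6.31 and 3.90 FPKM to 0.725, 0.697 and 0.740 FPKM (-1.74 ± 0.18, adjusted p = 9.91e-07). Slc25a39, a mitochondrial glutathione carrier, fell from 48.9, 57.4 and 71.1 FPKM to 24.3, 22.9 and 30.3 FPKM (-1.16 ± 0.23). Slc25a20, Slc25a10, Slc25a35 and Slc25a45 were called lower and were no longer called after scaling, and Slc25a44 was the remaining fall. Slc25a1, the citrate carrier, was at 25.4, 12.7 and 17.2 FPKM with mock and 23.4, 13.5 and 21.6 FPKM with LPS, and the treatments overlapped (0.10 ± 0.39, adjusted p = 0.857).

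Carriers of nucleosides, nucleotide sugars and acetyl-CoA held the largest rise of all members and 9 falls among 22 tested, or 1 rise and 5 falls after scaling, with a median of -0.60 (-0.40 after scaling). Slc28a2, the sodium-dependent purine nucleoside importer CNT2 at chr2:122426477-122461137, was at 10.9, 15.5 and 13.4 FPKM with mock and 181, 297 and 84.5 FPKM with LPS (3.56 ± 0.50, adjusted p = 2.51e-05). Every LPS-treated library was far above every mock-treated one, but the LPS-treated libraries differed among themselves. Its first exons also differed. The first exon at chr2:122426477-122426635 held 181 FPKM in the first LPS-treated TLR4-WT library, and the one at chr2:122439747-122441006 held 295 and 84.3 FPKM in the others. The gene Gm14085 was listed at 37.0 FPKM in that first library, at 36.5 FPKM in 1 LPS-treated TLR4-K730R library and at 0 to 1.48 FPKM in the other 16, and how reads were shared between the 2 genes was not tested. In contrast, Slc29a1, the equilibrative nucleoside transporter ENT1, fell from 21.99, 19.95 and 30.3 FPKM to 9.78, 8.48 and 12.5 FPKM (-1.15 ± 0.15, adjusted p = 1.34e-05). Its lysosomal relative Slc29a3 was called lower at -0.74, and not after scaling (adjusted p = 0.154). Of the Golgi nucleotide sugar family, Slc35c2 fell the most, from 26.5, 20.3 and 18.3 FPKM to 7.26, 5.52 and 6.95 FPKM (-1.57 ± 0.23, adjusted p = 3.17e-05).

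Carriers of inorganic ions and partners of the sodium-proton exchangers held 2 rises and 5 falls among 21 tested, the partner protein Slc4a1ap included, or 3 and 5 after scaling. The endosomal and Golgi exchangers fell. Slc9a9, NHE9 of endosomes, was at 3.60, 3.65 and 3.05 FPKM with mock and was listed at 0, 0.712 and 0 FPKM with LPS (-1.89 ± 0.25, adjusted p = 1.16e-05). Slc9a7, NHE7 of the trans-Golgi network, fell from 4.73, 3.49 and 4.39 FPKM to 1.06, 0.740 and 0 FPKM (-1.76 ± 0.34, adjusted p = 0.000498). The exchanger Slc9a8 instead rose by 0.52 ± 0.15 on the log2 scale (adjusted p = 0.00806). The 2 scaffold proteins moved in opposite directions. Slc9a3r1 (NHERF1) rose from 95.1, 96.9 and 108 FPKM to 166, 170.3 and 134 FPKM (0.64 ± 0.13, adjusted p = 0.000774), and Slc9a3r2 (NHERF2) fell from 3.71, 6.56 and 4.03 FPKM to 0.652, 0.448 and 1.02 FPKM (-1.74 ± 0.20, adjusted p = 2.99e-06). Slc9a9, Slc9a7 and Slc9a3r2 passed the level of 1 FPKM only with mock, so that their falls are in part set by the choice. The potassium-chloride cotransporter Slc12a7 fell from 15.6, 13.2 and 16.3 FPKM to 5.89, 5.26 and 5.42 FPKM (-1.29 ± 0.12). Slc20a1, a phosphate importer, overlapped between treatments (-0.17 ± 0.24, adjusted p = 0.585).

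The last class, carriers of lipids, vitamins, amines and other organic solutes, held 2 rises and 5 falls among 16 tested, or 2 and 4 after scaling. Slc46a3, a lysosomal carrier, showed the largest fall of all members, and passed the level of 1 FPKM only with mock. It went from 11.02, 12.2 and 12.5 FPKM to 0, 0.476 and 0.513 FPKM (-3.30 ± 0.22, adjusted p = 6.28e-09). Slc19a1 (the reduced folate carrier) was called lower at -1.28 and Slc46a1 (the proton-coupled folate transporter) at -1.09, while the mitochondrial folate carrier Slc25a32 was not called (-0.36 ± 0.15, adjusted p = 0.0688). Slc27a4, the fatty acid transport protein FATP4, rose from 9.48, 9.14 and 10.7 FPKM to 22.6, 20.2 and 25.5 FPKM (1.14 ± 0.15, adjusted p = 1.01e-05). Slc44a1, a choline transporter, rose by 0.51 ± 0.11 on the log2 scale (adjusted p = 0.00155). Slc48a1 was at 227, 220.05 and 274 FPKM with mock and 121, 93.4 and 241 FPKM with LPS, which overlap, and was not called (-0.77 ± 0.27, adjusted p = 0.0304). Without the third LPS-treated library, the high one, the difference was -1.16 and was called (adjusted p = 0.000496).

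**Figure D3:**
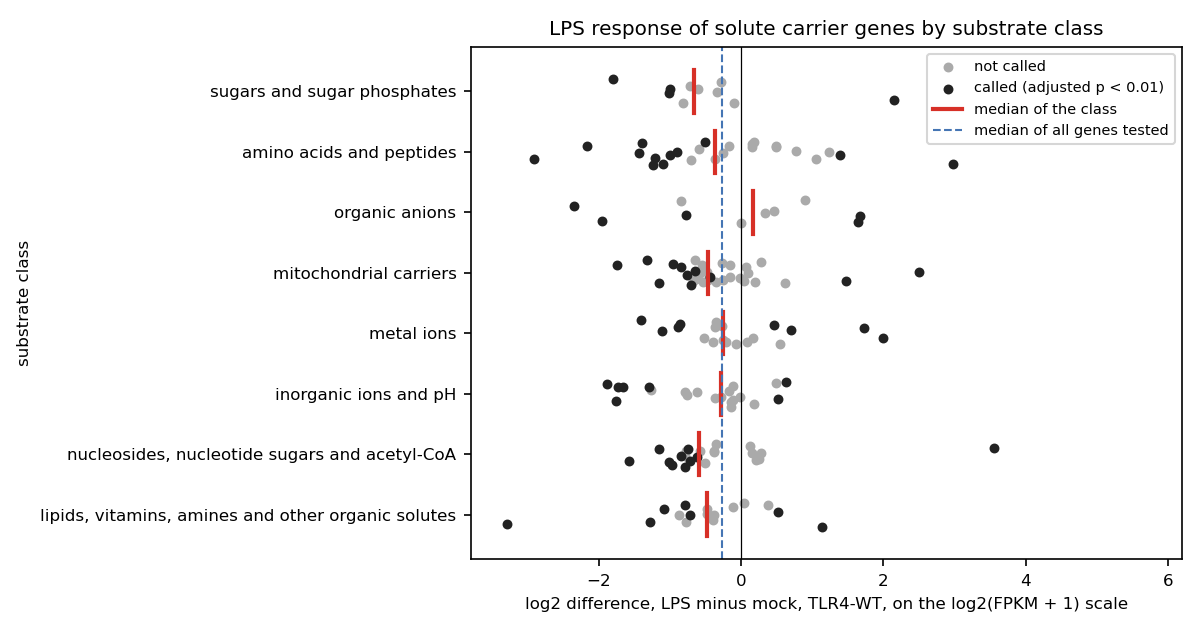
Log2 difference, LPS minus mock, of the TLR4-WT libraries on the log2(FPKM + 1) scale (horizontal axis), with 1 point per tested member in 8 substrate classes (vertical axis), black for called and grey for not called, a red bar at the class median and a dashed line at the median of all genes, -0.28. Each class holds called members on both sides of 0, and the class medians lie between -0.67 for sugars and 0.16 for organic anions.

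The LPS response was also measured in each mutant. In the TLR4-K730R genotype, 62 of 154 members were called, 17 higher and 45 lower, which is 40.3% beside 35.8% of all genes (9.32% higher, 26.5% lower), with medians of -0.42 and -0.36. In TLR4-K810R macrophages, 52 were called, 16 higher and 36 lower, which is 33.8% beside 28.8% of all genes (9.08% higher, 19.7% lower), with medians of -0.34 and -0.26. The balance of directions depended on the scaling. After median-of-ratios scaling there were 21 higher (13.6%, beside 15.5% of all genes) and 24 lower (15.6%, beside 13.5%) in TLR4-K730R, and in TLR4-K810R 20 higher (13%, beside 12.4%) and 18 lower (11.7%, beside 11.7%). Among the 121 members present in all 6 groups, 50 were called in TLR4-K730R (16 higher, 34 lower) and 39 in TLR4-K810R (14 higher, 25 lower). The libraries of the 2 treatments were apart for 103 members in TLR4-K730R (66.9%, beside 58.8% of all genes) and for 93 in TLR4-K810R (60.4%, beside 52.5%).

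Across genotypes, 12 members were called higher in all 3 (7.79%, beside 7.15% of all genes) and 29 were called lower in all 3 (18.8%, beside 15.1%). In exactly 2 genotypes 4 were higher (2.6%, beside 2.04%) and 11 lower (7.14%, beside 7.39%), and in 1 genotype 5 were higher (3.25%, beside 3.3%) and 20 lower (13%, beside 9.94%). Among the 121 members at the level in all 6 groups, 11 (9.09%) were called higher and 21 (17.4%) lower in all 3 genotypes. No member was called higher in one genotype and lower in another (count of 0). The 12 were Slc28a2, Slc1a2, Slc25a37, Slc2a6, Slc31a2, Slc31a1, Slc13a3, Slc25a22, Slc3a2, Slc27a4, Slc44a1 and Slc39a1, and they include 9 of the 10 largest rises, Slc1a2 having passed the level only with LPS. The tenth, Slc16a1, rose in TLR4-K730R from 2.27 to 2.79 FPKM across the mock libraries to 4.69 to 10.1 FPKM across the LPS libraries (1.09 ± 0.22, adjusted p = 0.000778). In TLR4-K810R it went from 3.19 to 4.02 FPKM to 5.59 to 6.24 FPKM without passing (0.62 ± 0.22, adjusted p = 0.0371), and the difference from the TLR4-WT response did not pass either (-1.03 ± 0.32, adjusted p = 0.168). For Slc28a2, with log2 differences of 3.21 in TLR4-K730R and 1.87 in TLR4-K810R, the TLR4-K810R response differed from that of TLR4-WT by -1.69 ± 0.71 (adjusted p = 0.316). The copper pair gave log2 differences of 2.10 and 2.20 for Slc31a2 and 1.32 and 1.72 for Slc31a1 in TLR4-K730R and TLR4-K810R, and the Slc31a1 response in TLR4-K730R differed from that of TLR4-WT by -0.41 ± 0.18 (unadjusted p = 0.0421, adjusted p = 0.685 by limma). Slc25a37 in TLR4-K730R was at most 6.75 FPKM with mock and reached 26.4 to 34.4 FPKM after LPS. In TLR4-K810R it was at most 4.63 FPKM and reached 21.8 to 31.0 FPKM. Of the 10 largest falls, Slc43a2, Slc17a5 and Slc45a4 were at 1 FPKM or more in all 6 groups, and these 3 were called lower in each genotype. Slc46a3 was at most 0.757 FPKM in any LPS-treated library and at least 9.21 FPKM in any mock-treated one, and Slc17a5 at most 3.32 and at least 11.2 FPKM.

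**Figure D4:**
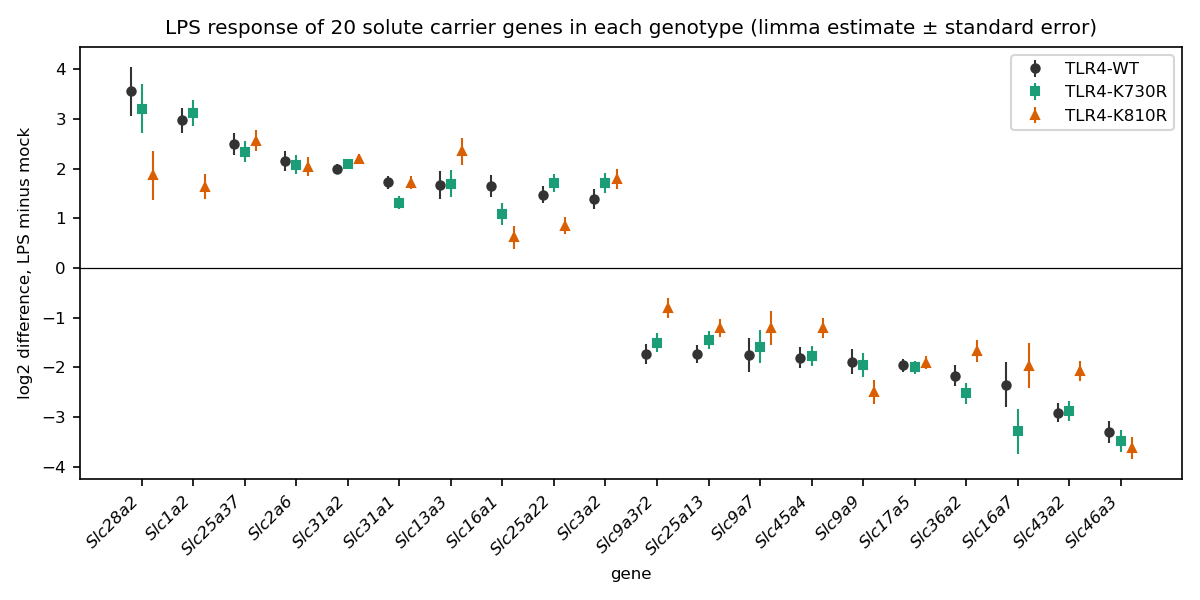
Log2 difference between LPS-treated and mock-treated libraries on the log2(FPKM + 1) scale (vertical axis) for the 10 largest rises and 10 largest falls of TLR4-WT (horizontal axis), with limma estimates as points and standard errors as bars, in black for TLR4-WT, green for TLR4-K730R and orange for TLR4-K810R. The 3 genotypes lie on the same side of 0 for all 20 genes, and the orange points of Slc28a2, Slc1a2 and Slc16a1 lie lower than the black ones, with differences that did not pass the test. Slc1a2 with mock, and Slc36a2 with LPS in TLR4-WT, are listed at 0, so that their points depend on the pseudocount of 1.

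The differences between the LPS responses were tested directly. For TLR4-K730R minus TLR4-WT, limma called 0 of 154 members, beside 0.0412% of all genes, and 6 had an unadjusted p below 0.05 (3.9%, beside 7.02% of all genes). The smallest unadjusted p belonged to Slc30a7 (-0.68 ± 0.19, adjusted p = 0.453), Slc25a25 and Slc16a6. Slc30a7 stayed between 4.60 and 5.56 FPKM in all 6 TLR4-K730R libraries. For TLR4-K810R minus TLR4-WT, limma called 0 members, beside 0.124% of all genes, and 21 had an unadjusted p below 0.05 (13.6%, beside 13.2% of all genes). The median difference was 0.13 over the members and 0.04 over all genes, and 0.09 and -0.0044 after scaling. The members with the smallest unadjusted p were Slc25a25, Slc1a2 and Slc48a1. Slc25a25, a calcium-regulated ATP-Mg and phosphate carrier, was at 9.06 to 10.7 FPKM with mock and 8.94 to 11.2 FPKM with LPS in TLR4-WT, and at 5.48 to 7.76 and 11.2 to 13.5 FPKM in TLR4-K810R. It was called higher after LPS in both mutants (0.62 ± 0.14, adjusted p = 0.00153, and 0.74 ± 0.14, adjusted p = 0.000388), not in TLR4-WT (0.04 ± 0.14), and the differences from TLR4-WT did not pass (adjusted p = 0.532 and 0.135). Slc48a1 was at 170, 181 and 158 FPKM with mock and at 284, 236 and 237 FPKM with LPS in TLR4-K810R, so that its treatments were apart in the direction opposite to TLR4-WT, with a difference between the responses of 1.34 ± 0.39 (adjusted p = 0.15).

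Without LPS, no solute carrier passed the test between either mutant and TLR4-WT. In mock-treated TLR4-K730R macrophages limma called 0 of 154 members, beside 0.268% of all genes, with 5 at an unadjusted p below 0.05 (3.25%, beside 7.7%), and the libraries were apart for 25 members (16.2%, beside 16.4%). Slc25a22 was lowest in unadjusted p, at 5.34, 4.91 and 3.73 FPKM against 7.43, 6.28 and 9.32 FPKM in TLR4-WT (-0.61 ± 0.18, adjusted p = 0.245), followed by Slc36a2 (0.70 ± 0.22, adjusted p = 0.313) and Slc25a30 (0.43 ± 0.16, adjusted p = 0.519). In mock-treated TLR4-K810R macrophages limma called 0 members, beside 1.58% of all genes, with 15 at an unadjusted p below 0.05 (9.74%, beside 14.1%), and the libraries were apart for 27 (17.5%, beside 20.8%). Slc9a3r2 was at 1.66, 3.01 and 2.50 FPKM against 3.71, 6.56 and 4.03 FPKM (-0.75 ± 0.20, adjusted p = 0.0489). Slc20a2, a phosphate importer, was at 5.10, 6.46 and 8.47 FPKM against 4.34, 3.22 and 3.26 FPKM (0.72 ± 0.22, adjusted p = 0.108), and Slc25a25 had an adjusted p of 0.0957. These members were apart in all libraries and did not reach the threshold.

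With LPS, no member passed the test between TLR4-K730R and TLR4-WT. Limma called 0 members, beside 0% of all genes, with 16 members at an unadjusted p below 0.05 (10.4%, beside 7.69% of all genes), and 15 members had their libraries apart (9.74%, beside 10.9%). The smallest unadjusted p belonged to Slc30a7 (-0.48 ± 0.14, adjusted p = 0.541), Slc6a8 (0.39 ± 0.13, adjusted p = 0.566) and Slc16a1 (-0.64 ± 0.22, adjusted p = 0.566).

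After LPS, TLR4-K810R was set against TLR4-WT in the same way, and limma called 0 of 154 members, beside 0.134% of all genes. At an unadjusted p below 0.05 there were 40 members (26%, beside 21.8% of all genes), and for 50 members (32.5%, beside 25.3% of all genes) the libraries were apart. The median log2 difference was 0.17 over the members, with 110 above and 44 below 0, and 0.11 over all genes, and after scaling these medians were 0.05 and -0.02. Slc1a2 had the smallest adjusted p. It was at 2.76, 1.40 and 2.37 FPKM in TLR4-K810R against 6.09, 7.74 and 6.80 FPKM in TLR4-WT, with no overlap (-1.33 ± 0.26, adjusted p = 0.0228). Slc19a1 was at 1.54, 3.62 and 1.99 FPKM against 1.01, 0 and 0.557 FPKM (1.16 ± 0.25, adjusted p = 0.0326), and Slc25a40, a mitochondrial glutathione carrier, at 1.89, 2.05 and 1.24 FPKM against 0.0356, 0.452 and 0.478 FPKM (1.05 ± 0.24, adjusted p = 0.0405). Slc28a2 was at 66.6, 50.4 and 29.0 FPKM against 181, 297 and 84.5 FPKM (-1.83 ± 0.50, adjusted p = 0.0604). Slc16a1 was at 5.59, 6.24 and 5.82 FPKM against 13.1, 12.7 and 7.63 FPKM (-0.78 ± 0.22, adjusted p = 0.0701). These members were lower or higher in every TLR4-K810R library than in every TLR4-WT one, without passing the threshold. Slc3a2, a partner of many exchangers, was instead at 591, 546 and 609 FPKM against 375, 321 and 538 FPKM (0.53 ± 0.20, adjusted p = 0.143). With library weights in the fit, limma called 9 members (5.84%, beside 3.77% of all genes), with Slc1a5, Slc25a4, Slc7a6, Slc35a4, Slc25a40 and Slc48a1 higher (beside 2.3% of all genes) and Slc1a2, Slc28a2 and Slc16a1 lower (beside 1.47%) in TLR4-K810R. Without the third LPS-treated TLR4-WT library it called 4 (2.6%, beside 2.92% of all genes), Slc25a4, Slc7a6, Slc35a4 and Slc48a1, all higher (beside 2.04%), and 0 lower (beside 0.876%).

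**Figure D5:**
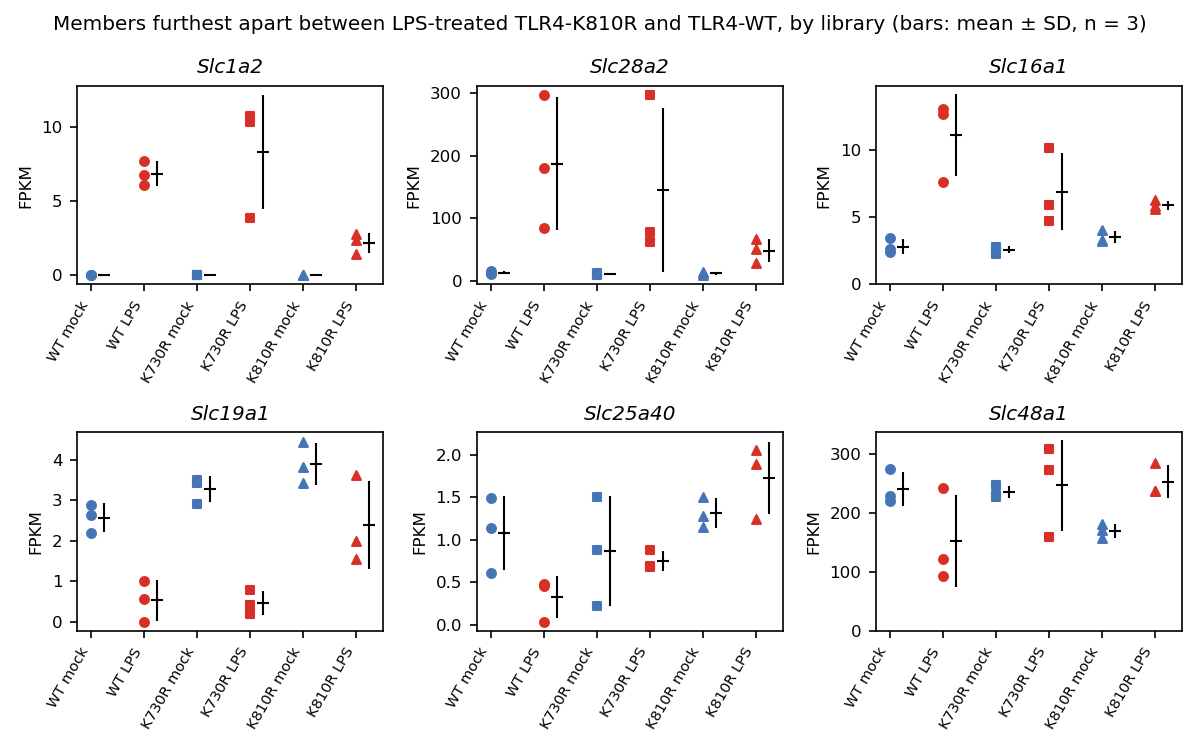
FPKM (vertical axes, each including 0) of 6 members in the 6 groups (horizontal axes), with 1 point per library and bars at the mean ± SD of 3 libraries. LPS-treated TLR4-K810R libraries lie below LPS-treated TLR4-WT libraries for Slc1a2, Slc28a2 and Slc16a1 and above them for Slc19a1 and Slc25a40, and they overlap for Slc48a1, none of which passed an adjusted p below 0.01.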

How the data were processed

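RNA-seq FPKM values of 18 libraries from peritoneal macrophages were used. Per the labels, RNA was column-purified and sequenced on an Illumina platform. The authors deposited FPKM for transcript events in one row per event with an Ensembl gene number, normalized for length and library. Their program and test are not given in the sources used here. The submitters' processing notes name the build hg18, while the rows are mouse genes of GRCm38 (its GENCODE annotation holds 14126 of the 14138 gene numbers, and 92.8% of rows lie on their named gene). Rows off the strand or span of their gene were dropped, 5.98% of the FPKM. FPKM was summed over a gene's first-exon rows and over its last-exon rows, and the larger sum was taken as its value. For 67 of the 156 members both sums lie within 1.1 times of each other.

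Genes with at least 1 FPKM in 3 libraries (9707, with 154 members; Slc27a6 and Slc9a4 were not tested) were fitted with limma 3.58.1 in R 4.3.3 on log2(FPKM + 1), all 6 groups sharing one spread, with a trended prior variance and p-values adjusted over all genes by Benjamini-Hochberg. Calls need an adjusted p below 0.01. Scripts were tested on simulated data. Counts were not used here, so depth is unknown and no count test was run. Groups and replicate numbers follow the labels. Promoters are RefSeq windows of GRCm38.p6, matched to first exons in the deposited rows. The members, substrate classes and marker lists were chosen with earlier results of these data known. Named members are the 10 largest called rises and falls in TLR4-WT with libraries apart, called members or the 3 smallest p of each other comparison, the 10 highest levels, the extremes of each class and 12 members known in macrophage activation; other members are named where they complete a list of calls. Alternatives were the pseudocount, filters, scaling, value per gene, variance model, library weights, groups fitted, a replicate block and each library left out.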

Additional observations from a re-analysis of the deposited data

How the results depend on the processing

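The count of members called after LPS in TLR4-WT was 64 and fell to 34 with the last-exon sum alone, which covers 98 tested members. LPS-treated TLR4-K810R against TLR4-WT gave 0 calls, and 9 with library weights (5.84%, beside 3.77% of all genes). Leaving out each library in turn gave 55 to 61 calls after LPS in TLR4-WT, 54 to 61 in TLR4-K730R, 41 to 46 in TLR4-K810R, 0 to 4 for LPS-treated TLR4-K810R against TLR4-WT (4 without the third LPS-treated TLR4-WT library, 2.6% beside 2.92%), and 0 for the other mutant comparisons and both differences. With a replicate block the counts were 60, 59 and 46 for LPS in TLR4-WT, TLR4-K730R and TLR4-K810R, and 0 elsewhere. Libraries of the same number did not deviate together, with correlations of their deviations from the group means between -0.32 and 0.099. Whether libraries of one number shared a mouse is not given in the labels and cannot be decided from these correlations. Under the other alternatives the counts stayed within 1.5 times. Over all members, median-of-ratios scaling removed 15 calls and added 4 in TLR4-WT, removed 21 and added 4 in TLR4-K730R, and removed 18 and added 4 in TLR4-K810R. For the members named by the rule, each in the comparison that named it and without those named to complete a list of calls, 907 of the values under an alternative kept their direction and side of the threshold, 6 passed it and 2 no longer did (Slc2a6 with the first-exon sum and Slc39a1 with only the groups compared in the fit), and none (0) reversed. Since the files hold no counts, small differences of low members cannot be given a counting error, and an exact 0 may be an event without a row.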

Other observations

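A few Slc genes that are no members had rows under another gene's number. This was looked at after seeing the data, and counting them would raise the members from 156 to 161. The clearest was Slc37a2, an endoplasmic reticulum carrier linked to glucose 6-phosphate, whose rows carry the number of Ccdc15. These rows held 67.1, 66.2 and 63.9 FPKM in mock-treated and 8.05, 6.07 and 6.02 FPKM in LPS-treated TLR4-WT libraries. In TLR4-K730R they held 51.3 to 57.2 FPKM with mock and 4.11 to 7.48 FPKM with LPS, and in TLR4-K810R 53.7 to 69.9 FPKM and 5.96 to 7.22 FPKM. The treatments did not overlap in any genotype. Slc25a11, the mitochondrial oxoglutarate carrier, listed under Gm12319, held 32.4 to 60.1 FPKM with mock and 26.2 to 47.2 FPKM with LPS in TLR4-WT, which overlap. Slc22a14 had rows under Myd88 in a single library, an LPS-treated TLR4-WT library with 78.2 FPKM.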
